A study of Mus musculus with 111 samples.

Results

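Guide RNAs of the cell nucleus were followed through small RNA libraries of mouse tissue under 2 kinds of name: the H/ACA box small nucleolar RNAs (Snora) and the Cajal body RNAs (Scarna). They are the entries of a deposited table of read counts whose names start with these letters. There are 44, 36 Snora and 8 Scarna, among 1268 entries. Liver gave 17 libraries and heart 19, and the male tract gave 19 from testis, 19 from the caput (head) and 18 from the cauda (tail) of the epididymis, and 19 from sperm. OTTR-seq was used, a method whose reverse transcriptase joins the adapters while it copies an RNA.

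Each tissue was sampled on 4 diets given for 6 months, with 4 or 5 libraries in each of the 24 groups. The control diet had 18% protein. The low-protein diet had 10% protein, with sucrose in its place. The high-fat diet drew 60% of its calories from fat, and the high-fat control 7.2%. All mice were housed in groups with free access to food. The sources used here do not give strain, age at sampling or any genetic change. They also do not tie each library to an animal of its own, so the p-values below measure the spread between libraries, which may be partly technical.

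H/ACA snoRNAs fold into hairpins joined by a hinge and end in the letters ACA a few bases before their 3′ end. With the proteins dyskerin, Nop10, Nhp2 and Gar1 they direct the change of chosen uridines to pseudouridine in ribosomal RNA. A few, among them the Snora73 pair, act in cutting the ribosomal RNA precursor. The second large family, C/D box snoRNAs (Snord), directs 2′-O-methylation and is recognised by its C and D boxes. Cajal body RNAs use either design, or both in 1 molecule, and act on the RNAs of the spliceosome. In mammals most of these RNAs are cut out of the introns of other genes, and 40 of the 44 lay inside an annotated host gene.

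The sequences below, from GENCODE M21 transcripts of build GRCm38 and written 5′ to 3′, show the kinds of molecule that the results contrast. Snora69, Snora24, Snora73b and Snora65 are H/ACA snoRNAs, and capitals mark the terminal ACA and any match to the hinge pattern ANANNA that starts in the central stretch.
Snora69 (chrX:37082912-37083042, minus strand): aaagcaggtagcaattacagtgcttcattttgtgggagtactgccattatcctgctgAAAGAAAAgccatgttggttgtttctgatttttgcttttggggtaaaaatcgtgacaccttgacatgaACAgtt
Snora24 (chr3:123507937-123508066, minus strand): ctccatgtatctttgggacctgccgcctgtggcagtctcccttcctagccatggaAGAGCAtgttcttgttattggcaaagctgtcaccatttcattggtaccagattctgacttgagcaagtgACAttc
Snora73b (chr4:132352322-132352526, minus strand): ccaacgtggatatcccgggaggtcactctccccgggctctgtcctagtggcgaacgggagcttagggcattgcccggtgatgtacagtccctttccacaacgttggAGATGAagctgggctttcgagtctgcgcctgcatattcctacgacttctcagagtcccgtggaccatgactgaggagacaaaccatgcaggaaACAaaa
Snora65 (chr2:32963291-32963420, plus strand): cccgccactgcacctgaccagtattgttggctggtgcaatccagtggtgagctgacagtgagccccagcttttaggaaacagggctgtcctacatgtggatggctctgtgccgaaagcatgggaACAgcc
Scarna9 is short and built like a C/D snoRNA, and capitals mark its C box letters TGATGA and D box letters CTGA.
Scarna9 (chr9:15326264-15326333, minus strand): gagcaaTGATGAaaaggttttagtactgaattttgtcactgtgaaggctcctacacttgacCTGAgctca
Scarna3a and Scarna3b are related in sequence, and capitals mark the stretch annotated as the microRNA hairpins Mir1843b and Mir1843a.
Scarna3a (chr1:159340283-159340422, plus strand): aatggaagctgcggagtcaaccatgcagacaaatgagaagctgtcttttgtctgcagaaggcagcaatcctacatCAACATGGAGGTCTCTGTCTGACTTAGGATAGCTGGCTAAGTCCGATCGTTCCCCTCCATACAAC
Scarna3b (chr12:80391613-80391751, minus strand): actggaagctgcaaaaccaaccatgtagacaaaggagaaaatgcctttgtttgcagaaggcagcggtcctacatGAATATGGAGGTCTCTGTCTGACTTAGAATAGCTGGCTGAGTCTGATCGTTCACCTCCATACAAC

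A search of the sense strand found ACA exactly 3 bases from the end in 30 of 36 Snora (83.3%) and 1 of 8 Scarna. Among other annotated snoRNA and scaRNA genes of 120 to 210 bases the share was 24.9% of 895, and among 74 Snord entries it was 0. The C box TGATGA in the first 20 bases together with the D box CTGA in the last 20 was found in Scarna6, Scarna9, Scarna10 and Scarna17, in no Snora, and in 62.2% of Snord. The hinge pattern ANANNA is loose. It was matched in 34 of 36 Snora and in 86.8% of the other genes of that length. Annotated lengths ran from 121 to 205 bases in Snora and from 70 to 414 in Scarna, Scarna9 (70 bases) and Scarna17 (79 bases) being the only members under 120 bases. Snora73a and Snora73b share 96.6% of 205 aligned bases and Scarna3a and Scarna3b 85.7% of 140, so the division of reads within each pair is uncertain.

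The members are scarce in these libraries. Together they took 19279 reads, 0.0956% of the 51.1% of counts that remained after entries listing the same reads were reduced to 1. Of 4884 values, 42.96% were 0, and 7 members had fewer than 100 reads in all. Depth over the kept entries ran from 827 to 1467880 reads with a median of 59904, at which 1 read is worth 16.7 RPM (reads scaled to a common library total), the scale used for levels below. A median of 10 members was detected per caput library, 21 in liver, 26 in heart, 27 in sperm, 28 in testis and 36.5 in cauda. Germ cell RNA was seen through piRNA precursors, which made 4.54% ± 3.79 of testis reads (SD, n = 19), 0.602% ± 0.329 of sperm, 0.435% ± 0.187 of cauda (n = 18), 0.0322% ± 0.0390 of liver (n = 17), 0.0250% ± 0.0208 of caput and 0.00554% ± 0.00859 of heart. The table holds no messenger RNA, so markers of other cell types were not analysed here. In such bulk samples, fewer cells of a kind and less RNA per cell cannot be told apart.

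As a group the H/ACA snoRNAs were most abundant in cauda and sperm. Summed over the 36 Snora, cauda libraries held 748 to 4951 RPM with a median of 3096, and sperm libraries 1479 to 7761 with a median of 3091. Testis ran from 438 to 4027 with a median of 1883, liver from 193 to 2418 with a median of 667, caput from 0 to 1234 with a median of 484 and heart from 45.6 to 1064 with a median of 248. Every sperm library lay above every caput and heart library, while testis overlapped all the other tissues. By mean level, 20 of 36 Snora were highest in sperm and 12 in cauda, and 18 were lowest in heart and 10 in caput.

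**Figure D1:**
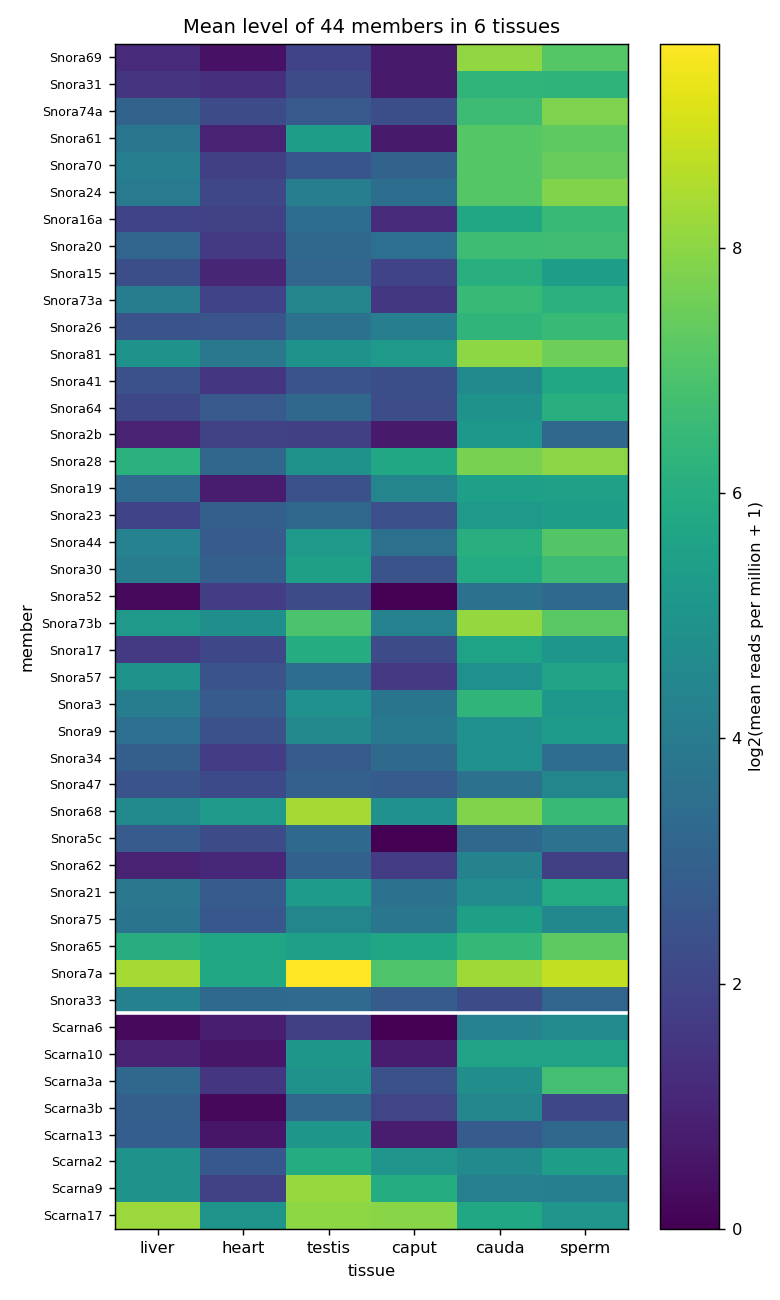
Colour gives log2(mean RPM + 1) of each of the 44 members (rows, Snora above the white line and Scarna below) over the libraries of each tissue (columns). Most Snora are brightest in cauda and sperm, Snora7a and Snora68 in testis, and Scarna17 is brightest in liver, testis and caput.

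The most abundant member, Snora7a, encoded in the ribosomal protein gene Rpl32, was the clearest exception by mean RPM. It took 3213 of the reads and averaged 808 ± 559.9 RPM in testis, 441 ± 201 in sperm, 326 ± 575 in liver, 308 ± 186 in cauda, 128 ± 101 in caput and 54.5 ± 70.0 in heart. Its lowest, middle and highest testis libraries held 136, 729 and 2245 RPM, so that neighbours in this order overlap widely. Snora68 was also highest in testis, at 326 ± 253 RPM, with 225 ± 126 in cauda, 92.0 ± 80.9 in sperm, 36.6 ± 42.8 in heart, 28.3 ± 38.9 in caput and 23.9 ± 32.9 in liver. Cauda and testis overlapped for Snora68, and so did the 3 tissues where it was lowest. The ranking of both is by mean RPM. In the filtered tests described below, testis against the other 5 tissues gave uncalled log2 differences of 0.65 ± 0.25 for Snora7a and 0.76 ± 0.29 for Snora68. Sperm against testis called neither, at 0.12 ± 0.34 and -0.45 ± 0.40.

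Snora73b, a member of the pair that acts in precursor cleavage, held 279 ± 117 RPM in cauda, 145 ± 107 in sperm, 121 ± 80.7 in testis, 36.1 ± 43.4 in liver, 26.9 ± 27.8 in heart and 18.3 ± 22.8 in caput. Snora81, from the translation factor gene Eif4a2, held 259 ± 168 in cauda and 184 ± 162 in sperm, against 35.6 ± 57.9 in caput, 29.8 ± 41.9 in testis, 29.7 ± 40.6 in liver and 13.6 ± 12.2 in heart. Snora28, from Eif5, had 253 ± 186 in sperm and 211 ± 132 in cauda, 70.9 ± 68.3 in liver, 53.04 ± 102 in caput, 30.0 ± 39.7 in testis and 8.13 ± 8.05 in heart. Snora81 and Snora28 were higher on average in cauda and sperm than in the other 4 tissues. For Snora73b the mean RPM of sperm and testis lay close together below cauda, though the fit below called it higher in sperm than in testis.

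Snora69, which lies in the X-linked ribosomal protein gene Rpl39, had the sharpest pattern. Cauda libraries held 22.3 to 714 RPM with a median of 252, and all 18 had reads. Sperm ran from 0 to 586 with a median of 90.5 and reads in 16 of 19 libraries. In the other tissues the median was 0, with 7 reads in all of liver, 6 in testis, 3 in heart and 1 in caput. All 18 cauda libraries lay above the highest caput library. Snora70, in the X-linked Rpl10, was similar, at 138 ± 97.3 RPM in cauda and 172 ± 151 in sperm against 5.01 ± 6.86 in testis.

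Tests used edgeR's quasi-likelihood F test over the whole table with Benjamini-Hochberg adjustment within each contrast, and a tissue call needs an adjusted p under 0.05 and an absolute log2 difference of at least 1. With edgeR's filter on low counts, 9 of the 44 members were tested among 294 entries: Snora7a, Snora24, Snora28, Snora68, Snora69, Snora73b, Snora81, Scarna9 and Scarna17. Since such a filter keeps a scarce RNA where it is high somewhere, counts over the family are given from a fit without the filter, which tested all 44 among 907 entries. Single values below are from the filtered fit unless said otherwise, with SE.

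In cauda against the other 5 tissues, 6 of the 9 tested members were higher, where 24.5% of all tested entries were called higher, and 2 were lower (21.8% of entries, 46.3% in either direction). Snora69 led with a log2 difference of 5.22 ± 0.27 (adjusted p = 4.145e-38), followed by Snora24 of the host gene Snhg8 at 2.47 ± 0.28, Snora73b at 2.08 ± 0.28 and Snora81 at 2.005 ± 0.27. The lower members were the short Scarna17 (-1.48 ± 0.32) and Scarna9 (-1.14 ± 0.40). Without the filter, 25 of 36 Snora were higher and 1, Snora33, was lower, and 3 of 8 Scarna were higher, where 37.8% of 907 entries were called higher and 9.37% lower. The Snora median was 1.67 against 0.31 over all entries. Scarna17 fell short of a call without high-fat replicate 2 of every tissue (-0.88, edgeR adjusted p = 0.0127) and on the control diets alone (-0.86). Scarna9 fell short without replicate 1, 3 or 4 of control, 1 of low protein, 2 of high fat or 1 of the high-fat control (-0.99 to -0.74), and with total counts (-0.60) or DESeq2 (-0.96).

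Sperm against the other 5 tissues gave 4 of 9 higher (34.7% of entries) and 2 lower (30.3% of entries, 65.0% in either direction). Snora69 was higher by 4.13 ± 0.31, Snora24 by 3.49 ± 0.28, Snora28 by 1.94 ± 0.28 and Snora81 by 1.58 ± 0.29, while Scarna17 was at -2.23 ± 0.36 and Scarna9 at -1.80 ± 0.49, a call lost with RLE factors (-0.84, adjusted p = 0.176). Without the filter 28 of 36 Snora and 4 of 8 Scarna were higher (47.3% of entries), with a Snora median of 2.19 against 0.85 over all entries. Snora74a (4.00 ± 0.30), Snora61 (3.74 ± 0.37) and Snora16a (3.59 ± 0.40) stood with Snora69 and Snora24 at the top of that fit.

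In caput, 5 of 9 tested members were lower (32.7% of entries) and 2 higher (14.6% of entries, 47.3% in either direction). Snora69 was at -2.80 ± 0.87, Snora73b at -2.33 ± 0.47, Snora68 at -1.64 ± 0.43 and Snora24 at -1.33 ± 0.53, whereas Scarna9 was higher by 1.45 ± 0.36 and Scarna17 by 1.24 ± 0.27 (0.998 with RLE factors, under the size limit). Without the filter 21 of 36 Snora were lower in caput and none was higher, beside 25.7% of entries called lower. The calls of Snora69 and Snora24 were lost with DESeq2 (-0.85 and -0.89, adjusted p = 0.186 and 0.0897) and on the control diets alone (-2.31 and -0.95, adjusted p = 0.113 and 0.234). That of Snora24 was also lost with total counts (-1.04, adjusted p = 0.121), with all entries kept (-1.09, 0.0729) and with the replicate number as a block (-1.21, 0.0506).

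In testis, Scarna9 was the one tested member called higher (37.4% of entries), by 2.38 ± 0.27, and 4 were lower (21.4% of entries, 58.8% in either direction): Snora69 at -2.89 ± 0.63, Snora28 at -2.36 ± 0.34, Snora81 at -2.27 ± 0.35 and Snora24 at -2.06 ± 0.38. Snora69 averaged 2.86 RPM in testis beside 1.31 in liver, 0.396 in heart and 0.613 in caput, and Snora24 16.6 beside 15.1, 3.14 and 10.1. For Snora69 and Snora24 the testis mean lay above liver, heart and caput and below cauda and sperm. Snora28 averaged 30.0 RPM in testis, below liver (70.9) and caput (53.04) and above heart (8.13). Snora81 averaged 29.8 in testis beside 29.7 in liver, 13.6 in heart and 35.6 in caput. How far the lower calls rest on the high levels in cauda and sperm was not tested. Without the filter 21 Snora were lower and 1, Snora68, was higher (1.10), but with total counts as the library size the same fit called 6 Snora higher and 4 lower. The calls of Snora28 (-0.93), Snora81 (-0.82) and Snora24 (-0.71) were also lost with total counts, which moved the median of all entries by 1.39, so the direction of the family in testis depends on the scaling.

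In heart, 4 of 9 tested members were lower (20.7% of entries, 39.1% in either direction) and none was higher: Snora69 at -2.53 ± 0.69, Snora24 at -1.81 ± 0.42, Scarna9 at -1.19 ± 0.39 and Snora28 at -1.10 ± 0.34. Scarna9 was not called on the control diets alone (-0.78, adjusted p = 0.238), and Snora69 was not called in heart or testis without control replicate 1 of every tissue (adjusted p = 1 and 0.997). Here too the scaling mattered. Total counts moved the median of all entries by -2.30 and called all 7 tested Snora lower, while leaving out the mitochondrial tRNAs, which made 71.0% ± 13.4 of heart reads, left 2 Snora lower and 1 higher. In liver 1 of 9 members was called, Scarna17, higher by 1.80 ± 0.26 (36.7% of entries called in either direction). High-fat liver replicates 3 and 4 held 1209 and 1536 RPM against 25.96 to 497 in the other 15, the former from 1 read. The call was lost without high-fat replicate 4 of every tissue (0.84) and on the control diets alone (0.34, adjusted p = 0.589).

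**Figure D2:**
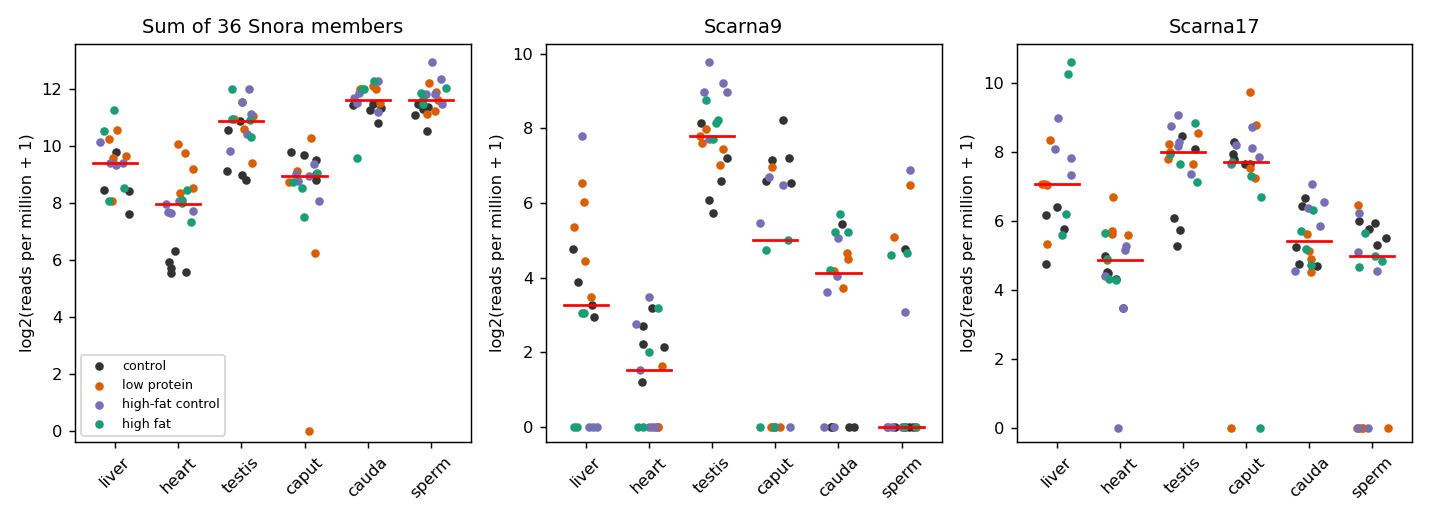
Each point is 1 library, coloured by diet, with log2(RPM + 1) of the summed 36 Snora, of Scarna9 and of Scarna17 on the vertical axes, and red bars mark the median of a tissue. Snora sums are highest in cauda and sperm, Scarna9 is highest in testis, and Scarna17 lies lower in heart, cauda and sperm than in liver, testis and caput.

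Sperm are made in the testis and mature while they pass from caput to cauda, so 2 contrasts follow the route of the cell: sperm against testis and cauda against caput. They have no library in common, but were fitted together. The column names carry S numbers, and those of testis, cauda and sperm recur among those of liver, heart and caput. Within each of these sets of tissues no number repeats, and heart columns of the high-fat diet and its control have none. What the numbers stand for is not given, so cauda and caput may differ in handling as well as in tissue. The part of this in the tissue contrasts was not tested. In sperm against testis 5 of 9 tested members were higher (29.9% of entries) and 2 lower (45.9% of entries, 75.9% in either direction). Snora69 was higher by 5.85 ± 0.46, with 15 of 19 sperm libraries above every testis library. Snora24 was higher by 4.63 ± 0.42 (17 of 19 libraries above), Snora28 by 3.59 ± 0.41 and Snora81 by 3.21 ± 0.41. Snora73b was higher by 1.18 ± 0.39 (edgeR adjusted p = 0.00442), with 2 of 19 sperm libraries above every testis library and 3 below. Scarna9 was at -3.48 ± 0.51 and Scarna17 at -2.04 ± 0.40, with 17 and 11 of 19 sperm libraries below every testis library.

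In cauda against caput 6 of 9 were higher (36.1% of entries) and 2 lower (27.2% of entries, 63.3% in either direction). Snora69 was at 6.69 ± 0.63. That value rests on 1 caput read against 432 in cauda, and the ratio of pooled RPM was 144 with an exact 95% counting interval of 25.7 to 5704. Snora73b was higher by 3.68 ± 0.51, Snora24 by 3.17 ± 0.53 and Snora68 by 2.41 ± 0.48, while Scarna17 was at -2.27 ± 0.38 and Scarna9 at -2.15 ± 0.48. Between these tissues piRNA made 0.435% of cauda and 0.0250% of caput reads and mitochondrial tRNA 9.50% and 29.4%, and their part in the differences was not tested.

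Over all 44 members without the filter, 31 of 36 Snora were higher in sperm than in testis and none was lower, where 31.8% of 907 entries were called higher and 34.7% lower. In cauda against caput 29 of 36 were higher and none lower (381 and 96 of 907 entries, 52.6% in all). With total counts 23 Snora were higher and 1 lower in sperm, and 29 higher in cauda. The Snora medians were 2.53 and 2.54, against -0.15 and 1.34 over all entries. With the entries at 0 in 1 tissue set to the bound that 3 reads allow, the cauda median became 2.27. In all, 28 of 44 members were higher in both contrasts, beside 227 of 907 entries (25.03%), 2 were lower in both, beside 62 entries (6.84%), none went opposite ways, beside 45 entries, and 3 (Snora62, Scarna2 and Scarna13) were called in neither.

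**Figure D3:**
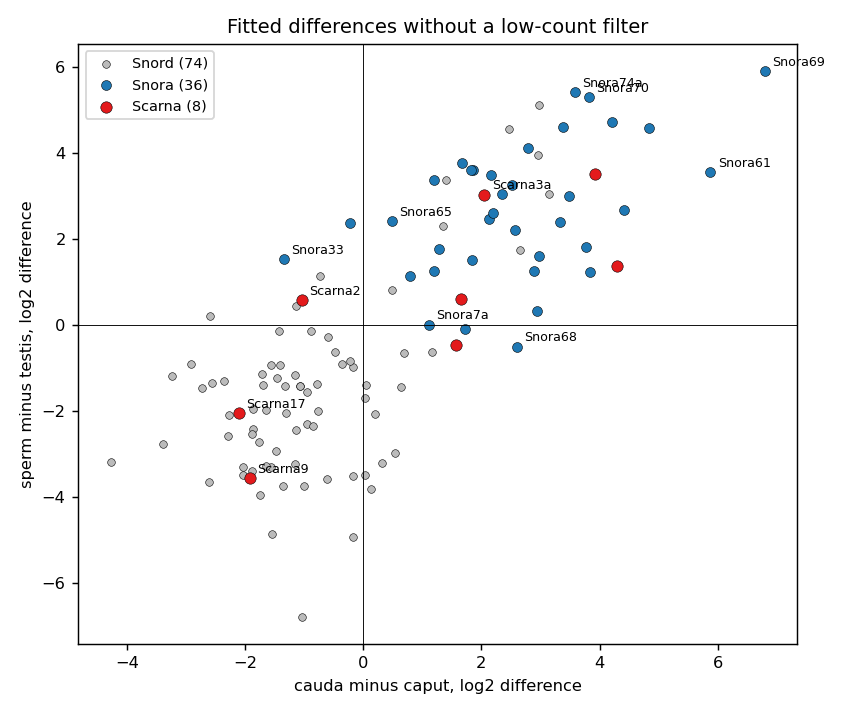
Each point is 1 entry of the table, placed by its fitted log2 difference of cauda minus caput (horizontal) and of sperm minus testis (vertical) without a low-count filter. Most of the 36 Snora (blue) lie at the upper right, most of the 74 Snord (grey) at the lower left, and Scarna9 and Scarna17 (red, labelled) lie among the Snord.

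The named C/D box snoRNAs went the other way. Of 74 Snord without the filter, 49 were lower in sperm than in testis and 8 higher, and 40 were lower in cauda than in caput and 7 higher, with medians of -1.51 and -1.11. Scarna9 and Scarna17, C/D in build, moved with them, but Scarna6 and Scarna10, which also hold C and D box letters, did not: both were higher in sperm than testis (3.50 ± 0.59 and 1.38 ± 0.47) and in cauda than caput. Entries were therefore also divided by annotated length, at a limit of 120 bases chosen after these values were seen. Of 5 Snord at or above it all 5 were higher in both contrasts, with medians of 3.96 and 2.96, while of 69 below it 49 were lower in sperm and 40 in cauda, with medians of -1.95 and -1.15. The 2 Scarna under the limit were lower in both contrasts, and of the 6 above it 3 were higher in sperm and 4 in cauda, and none was lower. Of snoRNA entries with other names, 41 of 61 at or above the limit were higher in sperm and 40 in cauda, while of 52 below it 33 were lower in sperm and 31 in cauda. The cDNA was size-selected on a gel, per the labels' protocols, and the column names end in the code gt65, whose meaning, a read length or otherwise, is not known here. The part of either in the division by length was not tested.

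**Figure D4:**
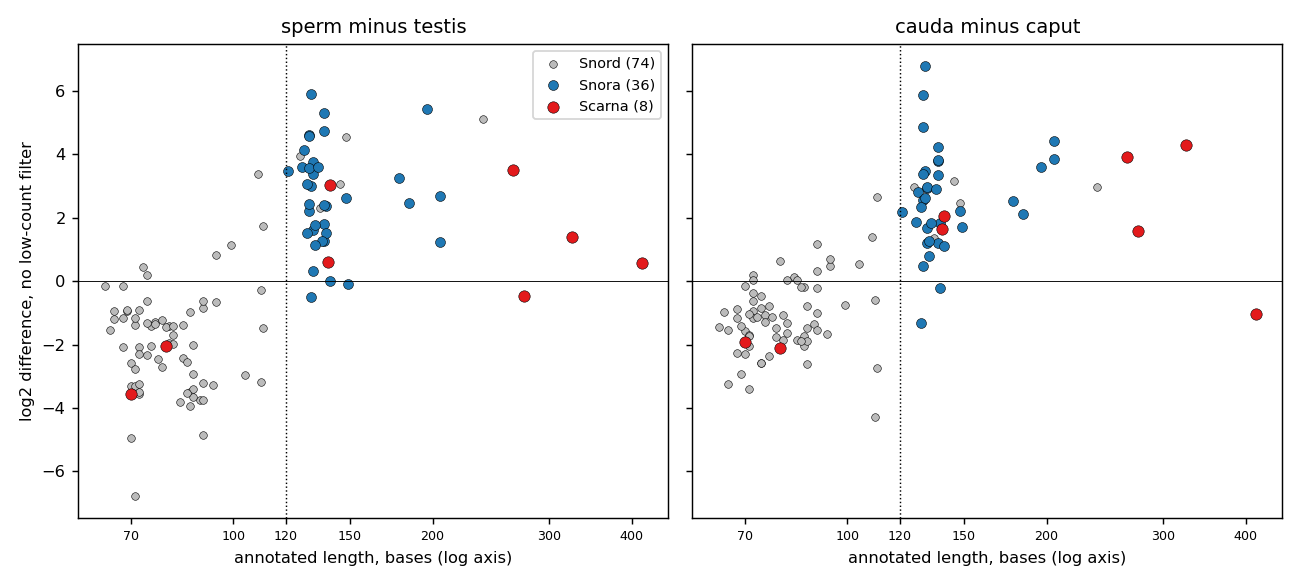
Annotated length in bases (horizontal, log axis) is plotted against the log2 difference of sperm minus testis (left) and cauda minus caput (right) for 74 Snord, 36 Snora and 8 Scarna, in a fit without a low-count filter. Points right of the dotted line at 120 bases lie mostly above 0 in all 3 classes, and points left of it mostly below.

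Other small nuclear and cytoplasmic RNAs were looked at as lists. Of 8 spliceosomal RNAs without the filter, 5 were higher in sperm than in testis and 8 in cauda than in caput. The U3 entries, a C/D RNA of precursor cleavage, were higher in both contrasts in 2 of 2 cases, and of the 4 RNAs Rny1, Rny3, Rpph1 and Rmrp 3 were higher in each.

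Sperm and cauda tissue, which holds sperm, gave few calls for these members. None of the 9 tested members was called in sperm against cauda by edgeR (44.6% of entries were called), although 3 had an adjusted p under 0.05 below the size limit: Snora69 at -0.91 ± 0.34, Snora73b at -0.96 ± 0.39 and Snora24 at 0.85 ± 0.36. DESeq2 called 3. RLE factors called 3 Snora higher and the fit without mitochondrial tRNAs 3 lower, so no direction of the family can be given here. Without the filter, 11 of 44 were called (317 of 907 entries), among them Scarna3a (2.12 ± 0.47), Snora33 (2.12 ± 0.66), Scarna2 (1.58 ± 0.50), Snora64 (1.53 ± 0.47) and Snora74a (1.42 ± 0.41) higher in sperm and Snora2b (-1.34 ± 0.54) lower.

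The Cajal body RNAs had several patterns. Scarna17 averaged 294 ± 427.5 RPM in liver, 256 ± 135 in testis, 245 ± 184 in caput, 54.5 ± 32.8 in cauda, 31.9 ± 27.6 in sperm and 31.4 ± 22.4 in heart. Scarna9 averaged 289 ± 207 in testis, 62.1 ± 77.7 in caput, 30.5 ± 55.5 in liver, 17.7 ± 16.5 in cauda, 16.8 ± 32.5 in sperm and 2.79 ± 3.28 in heart. Every testis library held Scarna9, from 52.3 to 870 RPM, and 7 of 19 sperm libraries did.

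Scarna10, which joins both designs in 325 bases, held 46.7 ± 52.9 RPM in sperm, 45.9 ± 34.4 in cauda and 33.2 ± 37.7 in testis, and averages under 1 RPM in caput (0.672 ± 2.93), liver (0.946 ± 1.87) and heart (0.505 ± 1.41). Scarna6 held 24.4 ± 26.7 in sperm, 18.5 ± 30.8 in cauda, 2.54 ± 6.78 in testis, 0.738 ± 1.97 in heart and 0.173 ± 0.713 in liver. Scarna13 was highest in testis, at 33.3 ± 30.8 RPM, against 8.49 ± 14.8 in sperm, 6.41 ± 18.1 in liver, 6.09 ± 8.17 in cauda, 0.711 ± 3.10 in caput and 0.517 ± 1.41 in heart. In the fit without the filter it was higher in testis than in the other tissues by 1.81 ± 0.35.

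Scarna2 ran from 61.4 ± 57.2 RPM in testis, 42.04 ± 37.2 in sperm, 31.9 ± 38.6 in caput, 30.4 ± 53.5 in liver and 22.9 ± 22.3 in cauda to 5.30 ± 7.67 in heart. Scarna6, Snora52 and Snora5c had 0 reads in 690674 of caput, which allows up to 4.34 RPM over the 19 libraries and covers counting error only. Their pooled levels in cauda were at least 3.002-fold (Scarna6), 2.33-fold (Snora52) and 2.001-fold (Snora5c) higher than that floor.

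Scarna3a and Scarna3b, the related pair, had these levels. Scarna3a held 109.7 ± 112 RPM in sperm, 29.4 ± 29.4 in testis, 26.2 ± 21.2 in cauda, 8.59 ± 26.7 in liver, 4.31 ± 11.2 in caput and 1.91 ± 6.45 in heart. Scarna3b held 3.28 ± 7.97 in sperm, 20.8 ± 23.3 in cauda, 8.20 ± 13.04 in testis, 6.55 ± 10.9 in liver, 3.06 ± 7.62 in caput and 0.161 ± 0.700 in heart. Scarna3a was higher in sperm than in testis by 3.03 ± 0.45, and Scarna3b was not called (0.61 ± 0.62, adjusted p = 0.39, both without the filter), a difference between the 2 that was not itself tested. The entries of their embedded hairpins list 173 reads for Mir1843b beside 197 for Scarna3a, and 86 for Mir1843a beside 94 for Scarna3b. The reads of guide and hairpin cannot be told apart, so the levels of this pair are uncertain.

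Members of 1 host gene could differ in size of change, a difference that was not itself tested. Snora61, in Snhg12, averaged 152 ± 96.5 RPM in sperm and 139 ± 126 in cauda and had 1 read in all of caput. It was higher in cauda than in caput by 5.88 ± 0.80 without the filter, with a ratio of pooled RPM of 66.03 and an interval of 11.7 to 2621, while Snora44 of the same gene was higher by 2.35 ± 0.66. Over host types, 8 of 11 members in ribosomal protein genes were higher in sperm than in testis, spread from -0.51 to 5.90, and 8 of 9 in non-coding host genes, spread from -0.47 to 4.73. Of 20 members in other hosts 17 were higher and 1 lower, and of 4 with no annotated host 1 was higher and 1 lower, where 31.8% of all entries were called higher. In cauda against caput the counts higher were 7 of 11, 7 of 9, 17 of 20 and 2 of 4. Of all 907 entries in that contrast, 381 were called higher and 96 lower. Snora33, from Rps12, was the Snora called lower in cauda than in the other tissues (-1.74 ± 0.54), on 9 cauda reads.

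Diet was tested within each tissue as low protein against control and high fat against its own control, called at an adjusted p under 0.05. In low-protein heart 5 of 6 tested members rose (33.5% of 242 entries were called higher and 41.7% lower, 75.2% in all). Without the filter 24 of 44 rose and none fell, where 20.2% of 662 entries were called higher and 23.7% lower. The 24 were 22 Snora and Scarna3a and Scarna13, where Scarna3a rests on 5 reads in 1 low-protein library and Scarna13 on 2 reads in 2, with none in control. Snora16a, Snora20, Snora23, Snora5c, Snora52, Snora57 and Snora47 also rest on few reads, 4 to 9 on low protein and 0 to 2 in control. Low-protein hearts pooled 971360 kept reads against 5323023 in control, so a fall of a scarce member could hardly be called. The Snora had a median of 2.44 against 0.00 over all entries. Entries at 0 in 1 group were then set to their bound. Those with no read in either group, or with too few reads to exceed the bound, were left out. On that smaller base the medians were 2.45 over 35 Snora and 0.47 over 505 entries.

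Snora65, from Rpl12, was at 3.97, 9.50, 3.63, 4.08 and 3.41 RPM in the 5 control hearts and at 170, 63.9, 308, 130.1 and 93.6 in the 5 low-protein hearts. Every low-protein library lay above every control library. The fitted log2 difference was 4.44 ± 0.52 (edgeR adjusted p = 5.053e-16), from 27 and 109 reads. In this contrast 75.2% of 242 entries were called, and the share of them whose groups do not overlap was not computed. A lack of overlap, here and for the members below, is therefore not read as particular to them.

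Snora73b was at 2.64, 3.96, 0, 1.36 and 2.04 RPM on control and 84.9, 26.6, 34.2, 37.2 and 8.51 on low protein. Its groups did not overlap either, and it rose by 3.88 ± 0.64. Snora68 was at 5.29, 5.54, 3.63, 4.08 and 3.41 on control and 90.5, 16.0, 103, 158 and 23.4 on low protein, a rise of 3.65 ± 0.56 with no overlap. Snora7a was at 13.2, 8.71, 11.8, 15.0 and 6.81 on control and 277, 123, 34.2, 186 and 36.2 on low protein, a rise of 3.49 ± 0.48 with no overlap.

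Scarna17 rose less, by 1.12 ± 0.50 (adjusted p = 0.0336), from 30.4, 21.4, 19.1, 21.8 and 10.2 RPM to 50.9, 47.9, 103, 27.9 and 46.8, and 1 low-protein library fell within the control range. Its call was lost with all entries kept (0.34, adjusted p = 0.458), without low-protein replicate 1 or 2 (1.06 and 1.01, adjusted p = 0.0573 and 0.0719), without the filter (0.83, 0.172) and without mitochondrial tRNAs (0.84, 0.123). Snora81 was not called (0.75 ± 0.67, adjusted p = 0.312), at 9.26, 10.3, 3.63, 6.80 and 5.45 on control and 39.6, 10.7, 0, 9.29 and 2.13 on low protein. Members with no read in control heart included Snora47, with 9 reads on low protein and a pooled level at least 16.4-fold above the floor of 3 reads, and Snora57, with 7 reads and at least 12.8-fold.

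**Figure D5:**
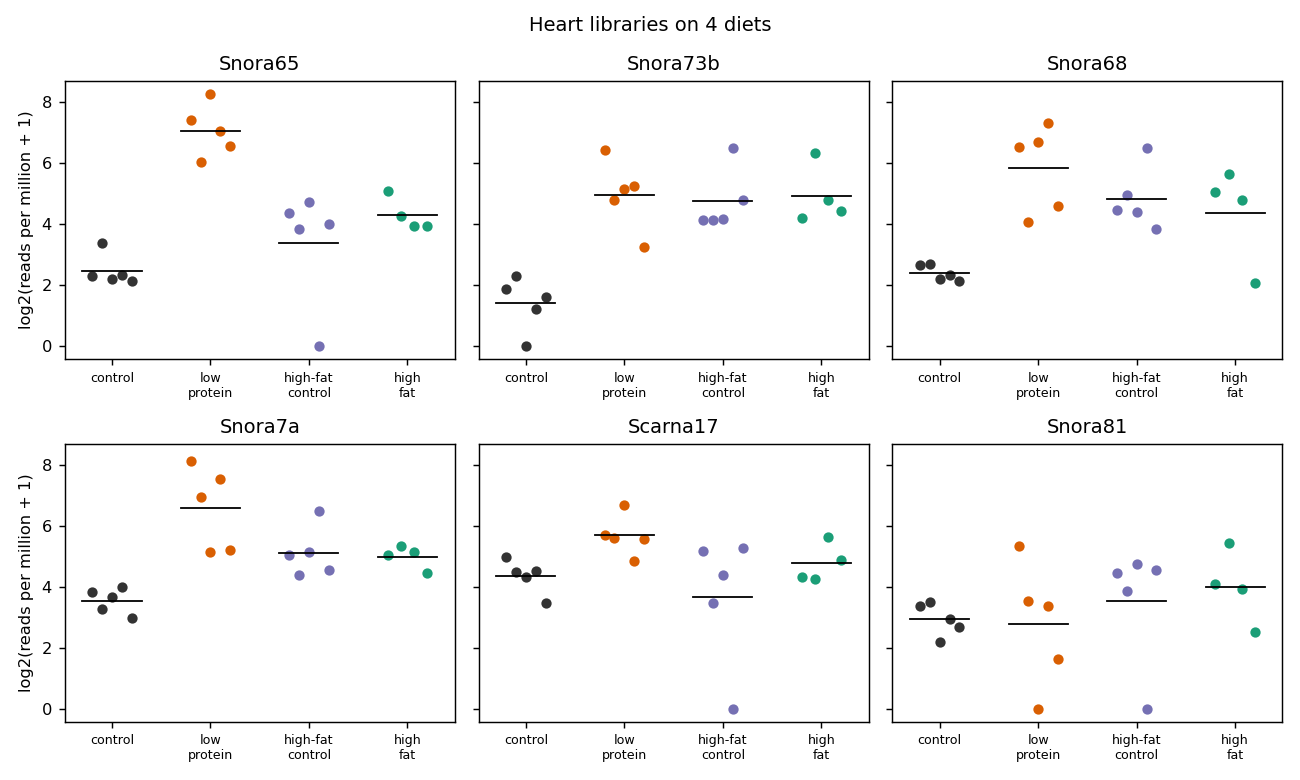
Points are heart libraries on the 4 diets (horizontal), with log2(RPM + 1) on a shared vertical axis and bars at the mean of those log values, for the 6 members tested in heart. For Snora65, Snora73b, Snora68 and Snora7a all 5 low-protein libraries lie above all 5 control libraries.

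Control hearts stood apart in depth. Their 5 libraries held 735211 to 1467880 reads, against 29210 to 470061 on low protein, and 74.7% to 77.98% mitochondrial tRNA against 36.7% to 87.3%. The part of these in the rise was not tested. In a fit without mitochondrial tRNAs, added after seeing the data, the differences were 4.15 for Snora65, 3.38 for Snora73b, 3.31 for Snora68 and 2.97 for Snora7a. That fit changes the scaling only and does not address the difference in depth. The summed members held 61.3 to 112 RPM on control, 379 to 1160 on low protein, 238 to 288 on the high-fat control and 191 to 378 on high fat. Snora65 averaged 14.8 ± 9.53 RPM (n = 5) on the high-fat control and 20.0 ± 9.04 (n = 4) on high fat, and Snora68 34.6 ± 30.6 and 27.6 ± 18.9, both above the level of the control diet, with which these groups were not compared. Without the filter, 18 of 74 Snord rose and 2 fell in low-protein heart (median 0.45), 4 of 7 spliceosomal RNAs rose and 1 fell (median 2.72), and both U3 entries rose (median 2.59).

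The size of the low-protein effect differed among the 6 tissues for 5 of 17 members tested, beside 35.9% of all 410 entries: Snora68 (adjusted p = 0.000485), Snora65 (0.000546), Snora7a (0.00773), Snora73b (0.0337) and Scarna9 (0.0379). Without the filter the call of Snora73b was lost (adjusted p = 0.172). In fits without the filter, Snora65 was at 4.08 ± 0.53 in heart, 1.20 ± 0.79 in liver, 0.71 ± 0.88 in sperm, -0.08 ± 0.78 in cauda, -0.16 ± 1.14 in caput and -0.37 ± 0.64 in testis. Snora68 was at 3.23 ± 0.57 in heart and at -2.24 ± 1.03 in sperm, where it was not called. Scarna9 was called in no single tissue, at 2.14 ± 1.39 in cauda, 1.67 ± 0.95 in liver and 0.99 ± 1.49 in sperm against -2.22 ± 1.17 in heart and -1.95 ± 1.07 in caput. Its control and low-protein reads were 1 and 6 in cauda, 15 and 32 in liver and 1 and 2 in sperm. In heart they were 23 and 1 and in caput 39 and 2, so the signs rest on few reads.

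In low-protein liver 1 of 4 tested members rose, Snora28, where 9.76% of 205 entries were called higher and 25.9% lower. Its 4 control libraries held 25.96, 10.4, 6.69 and 25.96 RPM and its 5 low-protein libraries 199.8, 102, 69.9, 12.3 and 120.5. The groups overlap through 1 low-protein library. The log2 difference was 2.45 ± 0.62 (edgeR adjusted p = 0.00432), and without the filter none of the 44 was called (Snora28 at 2.10, adjusted p = 0.0561). Mitochondrial tRNA made 26.5% ± 3.22 of control liver (n = 4) and 65.5% ± 9.76 of low-protein liver (n = 5), and its part in the rise was not tested. Snora65, Snora7a and Scarna17 were at 1.42 ± 0.75, 1.39 ± 0.81 and 1.22 ± 0.81.

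No member was called in the other 10 diet contrasts by edgeR with TMM factors and all libraries, with or without the filter. In low-protein testis 0 of 8 were called (0.0% of entries), with Scarna17 nearest at 0.47 ± 0.45. In low-protein caput 0 of 1 (41.4% of entries), Scarna17 at 0.22 ± 0.59. In low-protein cauda 0 of 10 (0.0%), Snora81 at 0.92 ± 0.56. All 10 fitted differences in cauda were above 0, with the smallest adjusted p at 0.311 (edgeR). They share 1 scaling, and the share of all 218 entries above 0 is not given here, so no rise of the family is read from the sign. The summed Snora held 1775 to 2835 RPM in the 5 control cauda libraries and 2860 to 4343 in the 4 low-protein ones, with no overlap, and no test was made over the sums. Mitochondrial tRNA made 4.95% ± 1.46 and 10.1% ± 1.90 of these libraries and piRNA 0.323% ± 0.0385 and 0.423% ± 0.0850, and their part in the sums was not tested. In low-protein sperm 0 of 5 (0.0%), Snora74a at 0.84 ± 0.87. None of these 24 tests had an unadjusted p under 0.05, and DESeq2 called none.

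High fat against its control gave 0 of 4 in liver (2.93% of entries), where Snora7a was at 3.42 ± 1.14 (unadjusted p = 0.006205, adjusted 0.0712) and Scarna17 at 2.36 ± 0.93. Snora65 was at 0.61 ± 1.08. Snora28 was at -1.70 ± 0.85, from 9 reads on high fat and 8 on its control. Its high-fat libraries all lay below its control ones, at 12.2 ± 8.42 against 146 ± 30.3 RPM. DESeq2 called 1 of these 4 members, edgeR called 1 without high-fat replicate 1 and 2 without high-fat replicate 2, and total counts without the filter gave 1 of 44. The smallest liver libraries, on high fat and its control, held 827 and 6279 reads. Heart gave 0 of 6 (1.24% of entries, 0.826% higher), Snora73b at 0.60 ± 0.55, and testis 0 of 8 (0.0%), Snora17 at -1.05 ± 0.63. Caput gave 0 of 1 (0.69%), Scarna17 at -1.14 ± 0.56 with an unadjusted p of 0.0453. Cauda gave 0 of 10 (0.0%), Snora70 at 1.17 ± 0.66, and sperm 0 of 5 (0.0%), Snora7a at 1.10 ± 0.63. Outside liver and caput none had an unadjusted p under 0.05 with edgeR, and DESeq2 called none outside liver. The high-fat effect differed among tissues for 0 of 12 members (3.17% of 379 entries), 2 of them with an unadjusted p under 0.05, led by Snora70 (adjusted p = 0.0983).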

How the data were processed

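The authors counted small RNA reads in each library, and the deposited table holds whole-number read counts per named RNA, not normalized. The tools cutadapt and DESeq2 and the build mm10 are named in the submitters' processing notes. The aligner, the counting rule, the use of strand and the meaning of the code gt65 in the column names: not given in the sources used here.

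Groups and numbers came from sample titles. The 22 second names of mitochondrial tRNAs, 55 further 5S entries and 149 entries with at least 50 reads that differed from a kept entry by less than 5.0% were left out, which kept 1042 of 1268 entries. Snora34 and Mir1291 listed the same 134 reads, and Snora19 was kept for Gm23658, which differed by 1.12%. RPM is reads scaled to the total of the kept entries. Tests on counts used R 4.3.3 and edgeR 4.0.16 (TMM, filterByExpr, robust quasi-likelihood F test; DESeq2 1.42.0 as an alternative), with SE from the F statistic. Tissue fits held all libraries with terms for tissue and diet, diet fits the 4 diets of 1 tissue, and interaction fits a diet pair in 6 tissues. The scripts were tested on simulated counts with known changes. Fits without the filter kept every entry with at least 1 read.

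The members and lists were chosen with earlier results of these data known. Named in every tissue were the 6 members with the most reads and each Scarna with at least 50, per tissue contrast up to 4 called members in each direction by size of change, and per diet contrast up to 6 by adjusted p or, with none called, the one with the smallest p. Others named were chosen after their values were seen. Positions are 1-based, from GENCODE M21 on GRCm38, the assembly of mm10. Intervals and floors cover counting error only, since reads carry no molecular identifiers.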

Additional observations from a re-analysis of the deposited data

Results flagged for a closer look

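In 4 of 60 checks, which used each of the 24 groups more than once, 1 library lay apart from the others of its group by Dixon's criterion. Chance meets it in about 1 of 20 independent checks of normally distributed values. These checks share libraries, and some values rest on 0 or 1 read, so that rate is only a rough guide. The summed Snora of high-fat control liver replicate 1 were 1129 RPM, above the 637 to 667 of the other 3 libraries. The summed Scarna of high-fat control liver replicate 3 were 159.3 RPM, from 1 read. The summed Scarna of high-fat control heart replicate 4 were 0, in a library of 11320 reads. Snora65 was at 9.505 RPM in control heart replicate 2, above the 3.41 to 4.08 of the other 4.

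The low-protein effect differed among tissues in edgeR's test of the tissue by diet terms for Snora68 (adjusted p = 0.000485), Snora65 (0.000546), Snora7a (0.00773), Snora73b (0.0337) and Scarna9 (0.0379). For the 4 Snora the largest difference was in heart. For Scarna9 the fitted differences varied in sign, but on few reads, such as 1 in all of low-protein heart and 1 in all of control cauda. Of all 410 entries 35.9% were called in that test, against 5 of 17 members, and the call of Snora73b was lost without the low-count filter (adjusted p = 0.172).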

How the results depend on the processing

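No called difference of a named member changed sign in the alternatives run, while the split of Snora calls in testis, heart, liver and sperm against cauda moved with the scaling. Without the low-count filter all 44 members are tested in place of 9 in the tissue contrasts, 6 in low-protein heart and 4 in low-protein liver, so the counts are not on 1 base: alone, with total counts and with RLE factors, they were 4, 14 and 6 in liver (1 with the filter), 14, 39 and 34 in heart (4), 25, 15 and 20 in testis (5), 24 and 22 (alone and with RLE) in caput (7), 31, 36 and 31 in cauda (8), 34, 37 and 41 in sperm (6), 36, 29 and 36 in sperm against testis (7), 11, 6 and 22 in sperm against cauda (0), 35, 35 and 34 in cauda against caput (8), 24, 30 and 30 in low-protein heart (5) and 0, 2 and 0 in low-protein liver (1). The settings that joined 2 choices, and the one without mitochondrial tRNAs, were chosen after seeing the data. With the filter, RLE factors gave 4 in liver, 9 in heart, 8 in testis, 3 in sperm against cauda and 8 in the low-protein interaction (5), and total counts 5 in liver, 9 in heart and 1 in sperm against cauda. Keeping all 1268 entries gave 3 in liver, 3 in sperm against cauda and 2 in the low-protein interaction, and left no member to test in the caput diet contrasts. Without mitochondrial tRNAs there were 2 in liver and 3 in sperm against cauda. Without the 3 libraries under 5000 reads there were 2 in sperm against cauda and 8 in the low-protein interaction. The control diets alone gave 2 in liver and 4 in caput, and DESeq2 2 in liver, 4 in caput, 3 in sperm against cauda and 1 in high-fat liver (0). High-fat liver also gave 1 with total counts and no filter. The high-fat interaction (0) gave 1 with total counts, 1 without the filter and 2 with both, and the low-protein one 8 with RLE factors and no filter.

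Leaving out replicates in turn (for tissues, 1 diet and number in every tissue) gave 1 to 3 in liver, 3 to 5 in heart, 5 to 7 in testis, 6 to 8 in caput, 6 to 9 in cauda, 6 to 8 in sperm, 6 to 8 in sperm against testis, 0 to 3 in sperm against cauda, 8 to 10 in cauda against caput, 1 to 2 in low-protein liver, 0 to 2 in high-fat liver and 4 to 6 in low-protein heart. Without control replicate 1 of every tissue the calls of Snora69 were lost in heart and testis (adjusted p = 1 and 0.997) at log2 differences of -2.50 and -2.56, and the cause was not tested. With the replicate number as a block, 2 members were called in sperm against cauda, and 1 of 46 member calls, Snora24 in caput, was lost (adjusted p = 0.0506). These numbers are those of the titles, and in 11 libraries of 3 groups the library name has another number; the libraries left out above follow the titles. A block by the library-name number, added after seeing the data, also called 2 in sperm against cauda and lost none of the 46. Neither numbering showed a pairing of libraries: those of 1 diet and number in different tissues correlated at a median of 0.00129 over 270 pairs by title and 0.00488 by library name, against 0.00494 for other numbers. Tissues of 1 animal need not vary together, so this check cannot tell whether libraries of 1 number share an animal. RLE factors and total counts moved the median of all entries by -0.40 and -0.41 in liver, -1.54 and -2.30 in heart, 0.98 and 1.39 in testis, -0.22 and 0.38 in caput, 0.00 and 0.46 in cauda, 1.03 and 0.40 in sperm, 0.94 and 0.02 in sperm against cauda, and 0.22 and 0.16 in low-protein heart. Depth limits most members, since 1 read is worth 16.7 RPM in the median library.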
